A study of Homo sapiens with 32 samples.

Results

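The genes described here supply amino acids to the cell and load them onto tRNA, and all 37 belong to the set known to be driven by the transcription factor ATF4. They were found by gene symbol, current or older, from a list proposed with earlier results of these data known. Their roles are serine and one-carbon metabolism (8 genes), other amino acid synthesis (7), transport across the plasma membrane (9), and cytosolic tRNA synthetases with the tRNA exporter XPOT (13). Of the 37, 35 had a probe set with 1 gene symbol, and 32 were bright enough to be tested, among 14695 tested genes of 19775 in all. SHMT1, MTHFD1L and SLC6A9 stayed under a log2 value of 5 on all 32 arrays in their brightest probe set with 1 symbol. SHMT1 and MTHFD1L each have 2 further probe sets with several symbols, which were not read, so their absence is not shown. GPT2 was not analysed here, and neither was MARS1, whose probe sets carry a further symbol.

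The study measured RNA of 2 human lung carcinoma lines on Affymetrix HG-U133 Plus 2.0 arrays. H1299 and A549 are both known to lack a working SMARCA4, the alternative to SMARCA2 as the ATPase of SWI/SNF chromatin remodelling complexes. Every line was a stable derivative carrying a short hairpin RNA, either S2sh7, directed at the ATPase domain sequence of SMARCA2, or shLuc, directed at luciferase. Each also expressed a cDNA. In H1299 this was SMARCA2 as wild-type (WT), with a mutant bromodomain (BRD), or ATPase dead (ATPdead), in A549 it was SMARCA4 in the same 3 forms, and in either line GFP served as the control. The 8 groups of H1299 had 3 arrays each, named biological replicates, and the 8 groups of A549 had 1 array each. All cells were grown in the same serum-containing medium without other treatment. The labels do not tell whether a stable line was 1 clone or a pool, whether replicates were separate cultures, or whether the SMARCA2 cDNAs escape the hairpin. The p-values therefore measure the spread between these arrays, which may be technical.

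ATF4 is the transcription factor of the integrated stress response. When amino acids run short or proteins misfold, kinases phosphorylate the initiation factor eIF2, most translation slows, and the ATF4 message is translated more. ATF4 then pairs with a C/EBP family protein or another partner on a composite DNA element and switches on genes that make, import and charge amino acids. In lung carcinoma cells the same genes serve growth, since serine gives carbon to folate for nucleotide synthesis and imported cystine gives cysteine for glutathione. The comparisons ask how far RNA of this programme differs with the S2sh7 hairpin, with each SMARCA2 form, and with SMARCA4. S2sh7 was the only hairpin directed at SMARCA2, so loss of SMARCA2 and other effects of that hairpin cannot be told apart.

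The promoters of the set show the element through which ATF4 is known to act. A search of RefSeq promoter windows (GRCh38.p14, 250 bases before to 50 after each start, 1 or more starts per gene) for the core TGATGNAA on both strands found it in 15 of the 29 genes with a window (51.7%), against 4.46% of all 27305 genes. Since the genes were listed as ATF4 targets, that share describes the list. The core TGACNNNGC of the antioxidant response element, which NRF2 binds, was in 10 of the 29 (34.5%), against 16.1% of all genes. Some windows held both cores, as in SLC3A2 and SLC7A1. The 9 stretches here run 5′ to 3′ on the strand of the gene and end before the start or a few bases after it, with the match to TGATGNAA or its reverse complement in capitals. They are shown because they hold the core in genes whose RNA is followed below, called lower, called higher or not called.
ASNS, chr7:97872424-97872521, minus strand: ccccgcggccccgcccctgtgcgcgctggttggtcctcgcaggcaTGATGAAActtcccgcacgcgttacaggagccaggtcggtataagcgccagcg
GOT1, chr10:99430770-99430867, minus strand: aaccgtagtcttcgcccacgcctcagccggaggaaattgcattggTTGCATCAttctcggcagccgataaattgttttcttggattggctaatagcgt
CARS1, chr11:3057418-3057470, minus strand: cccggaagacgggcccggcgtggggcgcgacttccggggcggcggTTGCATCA
AARS1, chr16:70289641-70289738, minus strand: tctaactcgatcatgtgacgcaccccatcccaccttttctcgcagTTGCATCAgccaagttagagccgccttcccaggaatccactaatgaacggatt
GARS1, chr7:30594800-30594877, plus strand: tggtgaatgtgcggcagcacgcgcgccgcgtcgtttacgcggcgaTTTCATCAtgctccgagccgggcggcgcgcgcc
SLC1A5, chr19:46784859-46784956, minus strand: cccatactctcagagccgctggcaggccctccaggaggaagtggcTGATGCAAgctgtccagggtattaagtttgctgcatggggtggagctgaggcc
SLC38A1, chr12:46266513-46266565, minus strand: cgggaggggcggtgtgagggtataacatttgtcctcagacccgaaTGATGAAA
SLC1A4, chr2:64989347-64989399, plus strand: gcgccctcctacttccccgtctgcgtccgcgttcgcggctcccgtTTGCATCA
IARS1, chr9:92293698-92293755, minus strand: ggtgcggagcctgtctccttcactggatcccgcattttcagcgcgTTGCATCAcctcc
The capitals begin 68 bases before the start in ASNS, 198 in GOT1, 187 in AARS1 and 97 in SLC1A5, and 2 bases before it in CARS1.

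SMARCA2 RNA fell with S2sh7 in 4 of its 5 tested probe sets, by -0.67 to -1.44 log2 over the 4 H1299 comparisons and by -1.60 to -3.16 in A549. The remaining probe set, dim in every array, gave -0.12 (adjusted p = 0.514) in H1299 with GFP and 0.00 (adjusted p = 0.998) in A549. A SMARCA2 probe set lay at log2 5.67 to 7.12 in all H1299 arrays with a SMARCA2 cDNA, against 4.32 to 5.45 with GFP, and a SMARCA4 probe set at 6.64 to 7.91 in all A549 arrays with a SMARCA4 cDNA, against 4.56 and 4.97 with GFP. Only 1 of the 5 tested SMARCA2 probe sets and 2 of the 7 tested SMARCA4 probe sets separated the cDNA arrays from the GFP arrays in this way. The brightest SMARCA4 probe set was itself lower with S2sh7 in H1299, by -0.33 with WT, -0.30 with BRD, -0.37 with ATPdead and -0.60 with GFP (adjusted p = 7.46e-07 with GFP), and higher in A549 (0.23, adjusted p = 0.0395). The part of SMARCA4 RNA in the results was not tested. Replicate arrays of H1299 correlated at 0.9976 to 0.9988, and the median SD of a tested gene of the set between replicates was 0.029 log2. The epithelial markers EPCAM and CDH1 were at log2 2.26 to 3.11 in H1299, so that line lacks them, but the keratins KRT18 and KRT8 were at 12.38 to 12.97 and 9.92 to 10.87. A549 had all 4. The summed intensity of 7 leukocyte and endothelial markers was 134.6 to 150.5 with S2sh7 and 129.5 to 150.1 with shLuc in H1299, and 241.2 to 306.1 with S2sh7 and 318.6 to 364.3 with shLuc in A549. In A549 the marker that varied most was CD14, at log2 5.08 to 6.98. None of the others had a wider range than LYZ, at 3.42 to 3.87. In either line at most 2 (H1299) or 4 (A549) of these markers passed log2 5 on an array, and their part in the A549 results was not tested. Array medians were also higher in A549, at 40.1 to 41.2 in intensity against 26.4 to 27.3 in H1299. In bulk RNA, fewer cells of a kind and less RNA per cell cannot be told apart.

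With GFP in H1299, 20 of the 32 tested genes were lower and 2 were higher with S2sh7 than with shLuc, at an adjusted p under 0.05 in limma over all 14695 genes. Among all genes 16.1% were called lower and 13.6% higher. The median log2 fold change of the set was -0.19, against 0.01 over all genes, and the falls were modest: outside ALDH1L2 the largest was -0.73. The calls had adjusted p from 1.49e-10 to 0.031. All 3 S2sh7 arrays lay under all 3 shLuc arrays in 21 genes and above them in 3, against 21.4% and 20.7% of all genes.

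**Figure D1:**
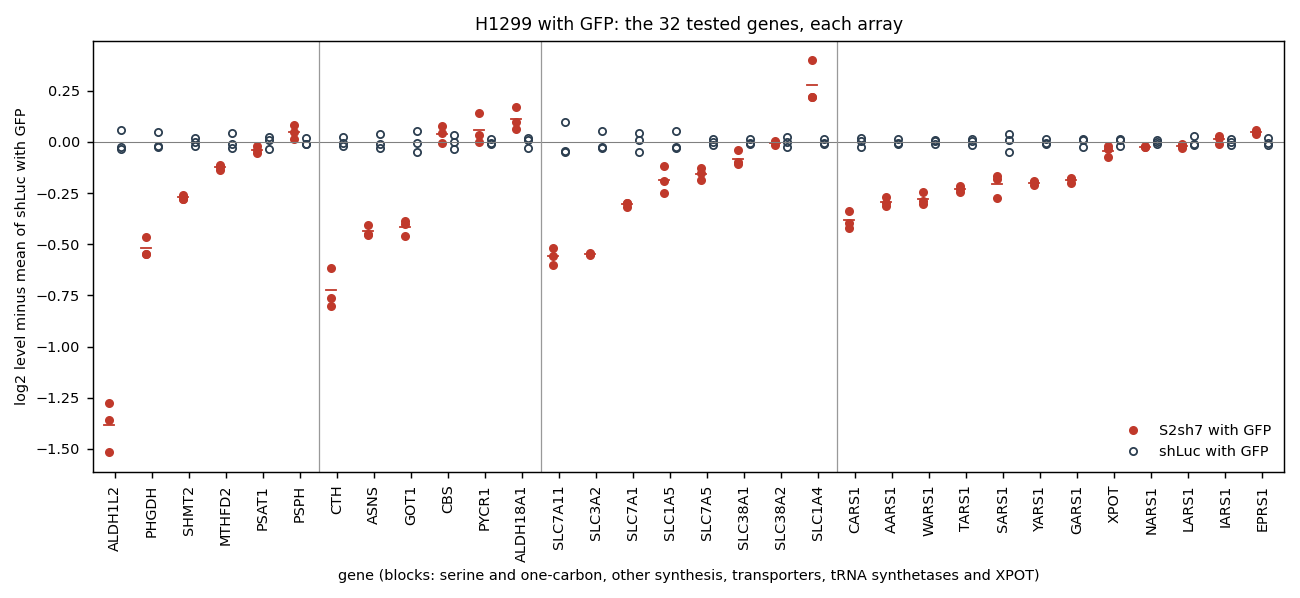
Log2 level of each of the 32 tested genes in H1299 with GFP, on every array, minus the mean of the 3 shLuc arrays of that gene. Filled points are S2sh7 arrays, short lines their mean, open points shLuc arrays. Most S2sh7 points lie under the open points, ALDH1L2 farthest, and SLC1A4 lies above them.

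In serine and one-carbon metabolism 4 of 6 tested genes fell and none rose. PHGDH, the entry enzyme of serine synthesis, read log2 8.04, 8.04 and 8.12 on the S2sh7 arrays, against 8.63, 8.56 and 8.56 on the shLuc arrays. The groups did not overlap, and the log2 fold change was -0.52 (SE 0.035, adjusted p = 7.34e-10), a fall of 30.3%. PSAT1 and PSPH, which complete the same path after PHGDH, were not called (-0.04 and 0.05, adjusted p = 0.368 and 0.363). With probe sets tested one by one, 1 of 2 for PSAT1 was called lower, at values from -0.14 to -0.04, and 0 of 2 for PSPH. SHMT2, which passes a carbon from serine to folate, read 9.47, 9.47 and 9.49 with S2sh7, against 9.73, 9.75 and 9.77 with shLuc, and fell by -0.27 (SE 0.027, adjusted p = 1.58e-07). ALDH1L2, the mitochondrial formyl-folate dehydrogenase, was the most changed gene of the set: it read 4.51, 4.59 and 4.35 with S2sh7, against 5.83, 5.93 and 5.84 with shLuc. Its log2 fold change was -1.38 (SE 0.14, adjusted p = 3.36e-07), but the S2sh7 values lie under log2 5, near background, so the fold is uncertain. MTHFD2, a further enzyme of that branch, fell by -0.12 (adjusted p = 0.00141). That call was lost in the mean of its probe sets, which gave -0.004 (adjusted p = 0.958).

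Among the other synthesis genes 3 of 6 fell and 1 rose. CTH, which releases cysteine from cystathionine, read log2 6.76, 6.91 and 6.72 with S2sh7, against 7.54, 7.52 and 7.50 with shLuc, a log2 fold change of -0.73 (SE 0.056, adjusted p = 6.04e-09). ASNS, asparagine synthetase, read 11.00, 11.04 and 10.99 with S2sh7, against 11.49, 11.42 and 11.44 with shLuc. Its fall of -0.44 (SE 0.026) had the smallest adjusted p of the set, 1.49e-10. GOT1, the cytosolic aspartate aminotransferase, read 8.95, 9.01 and 9.03 with S2sh7, against 9.46, 9.40 and 9.36 with shLuc, and fell by -0.42 (SE 0.037, adjusted p = 4.36e-08). In none of these genes did the arrays overlap. The proline pathway did not fall: ALDH18A1, its entry enzyme, read 8.46, 8.53 and 8.42 with S2sh7, against 8.38, 8.37 and 8.33 with shLuc, and rose by 0.11 (adjusted p = 0.0197), while PYCR1, its last step, was not called (0.06, adjusted p = 0.412). The ALDH18A1 call was lost in 4 of 15 alternatives, at 0.08 to 0.14. CBS, which makes the substrate of CTH, was not called (0.04, adjusted p = 0.435), and its probe sets cannot be told from those of the near-identical copy CBSL.

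Transporters had the highest share of calls, 6 lower and 1 higher of 8. SLC7A11, which imports cystine in exchange for glutamate, read log2 7.53, 7.61 and 7.58 with S2sh7, against 8.23, 8.09 and 8.08 with shLuc, a log2 fold change of -0.56 (SE 0.049, adjusted p = 3.3e-08). SLC3A2, the heavy chain that carries SLC7A11 and SLC7A5 to the membrane, read 9.29, 9.29 and 9.30 with S2sh7, against 9.90, 9.81 and 9.82 with shLuc. It fell by -0.55 (SE 0.035, adjusted p = 4.07e-10), so RNA of both chains of the cystine importer was lower, by about the same fold. SLC7A1, an importer of arginine and lysine, read 9.53, 9.53 and 9.51 with S2sh7, against 9.87, 9.78 and 9.83 with shLuc, and fell by -0.31 (SE 0.039, adjusted p = 5.69e-06). Its call narrowly missed the threshold in the mean of its 5 probe sets (-0.13, adjusted p = 0.0509), of which 3 were bright enough to be tested alone. The neutral amino acid carriers moved less: SLC1A5 fell by -0.19, SLC7A5 by -0.15 and SLC38A1 by -0.08, the last lost in 9 of 15 alternatives, and SLC38A2 was not called (-0.005, adjusted p = 0.911). SLC1A4, a carrier of alanine, serine and cysteine, went the other way: it read 6.69, 6.68 and 6.86 with S2sh7, against 6.46, 6.48 and 6.46 with shLuc, and rose by 0.28 (SE 0.067, adjusted p = 0.00334). Of its 5 tested probe sets 2 were called higher and none lower, and its brightest one outside the suffixes _s_at and _x_at, which mark probe sets that match several transcripts, gave 0.05 (adjusted p = 0.729). That probe set is dim in H1299, at a mean of log2 4.02.

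Of the 12 tested genes for synthetases and XPOT, 7 fell and none rose. CARS1, the cysteinyl-tRNA synthetase, read log2 9.78, 9.76 and 9.84 with S2sh7, against 10.20, 10.18 and 10.15 with shLuc, and fell by -0.38 (SE 0.039, adjusted p = 3.05e-07). AARS1, which charges alanine, read 9.47, 9.46 and 9.50 with S2sh7, against 9.76, 9.76 and 9.78 with shLuc, and fell by -0.29 (SE 0.035, adjusted p = 2.45e-06). WARS1, which charges tryptophan and is also known as an interferon-induced gene, read 9.48, 9.47 and 9.53 with S2sh7, against 9.78, 9.76 and 9.78 with shLuc, and fell by -0.28 (SE 0.028, adjusted p = 1.96e-07). These 3 had the largest falls of the group, with no overlap of arrays. TARS1 (-0.23), SARS1 (-0.21), YARS1 (-0.20) and GARS1 (-0.19), for threonine, serine, tyrosine and glycine, fell less. YARS1 was not called in its brightest probe set outside those suffixes (-0.19, adjusted p = 0.313), which averaged log2 5.62 in H1299. NARS1, LARS1, IARS1, EPRS1 and XPOT lay between -0.04 and 0.05 and were not called. Of the 4 tested LARS1 probe sets 1 was called lower, at values from -0.17 to -0.02. Over all roles, 66 probe sets of the set were tested one by one, of which 34 were lower and 3 higher, where 15% and 11% of all 27593 tested probe sets were, and no gene had probe sets called in both directions.

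The promoter core was in 10 of the 16 genes called lower that have a window, in 1 of 2 called higher, and in 2 of 7 not called. SLC1A4, which rose, and IARS1 and NARS1, which were not called, thus hold the same core as ASNS and CARS1.

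The hairpin effect was then followed through the 3 SMARCA2 cDNAs. With WT SMARCA2, 19 of the 32 genes were lower and 1 higher with S2sh7 than with shLuc, where 11.6% and 14.9% of all genes were. With BRD the counts were 18 lower and 1 higher (12.7% and 11.1% of all genes), and with ATPdead 19 lower and 1 higher (11.9% and 16.5%). A group of 15 genes was called lower in all 4 comparisons, with GFP included, against 6.81% of all genes: ALDH1L2, PHGDH and SHMT2, CTH, ASNS and GOT1, SLC7A11, SLC3A2 and SLC7A1, and CARS1, AARS1, WARS1, TARS1, YARS1 and GARS1. The YARS1 call was lost in 10 of 15 alternatives with WT, 10 with BRD, 3 with ATPdead and 1 with GFP. In the mean of the probe sets of a gene, ASNS was not called with WT (-0.12, adjusted p = 0.0726) or with BRD (-0.11, adjusted p = 0.116), nor were SLC7A1 (-0.12, adjusted p = 0.0911) and TARS1 (-0.15, adjusted p = 0.0717) with BRD. These means include dim probe sets: only 1 of 2 for ASNS and 3 of 5 for SLC7A1 were bright enough to be tested alone. SLC1A4 alone was called higher in all 4 (6.06% of all genes), by 0.25 with WT, 0.27 with BRD, 0.21 with ATPdead and 0.28 with GFP. With its brightest probe set outside the suffixes _s_at and _x_at, SLC1A4 was not called in any, at -0.11, 0.19, -0.06 and 0.05 in the same order. PSAT1, PSPH, PYCR1, CBS, NARS1, IARS1 and XPOT were called in none. Without probe sets of those suffixes, 22 genes could be tested, and 13, 12 and 12 of them were lower with WT, BRD and ATPdead, none higher.

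**Figure D2:**
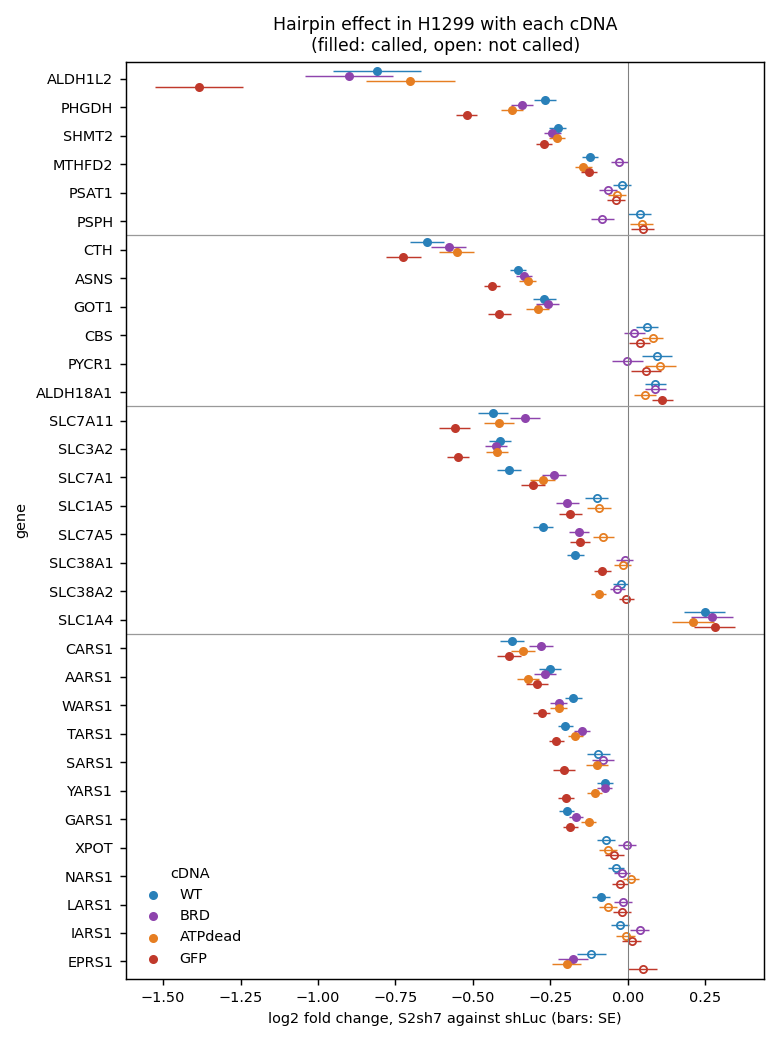
Log2 fold change of each tested gene in H1299, S2sh7 against shLuc, for each cDNA, with bars of 1 SE. Filled points were called at adjusted p under 0.05. In PHGDH the red GFP point lies farthest from 0 (-0.52 with GFP, -0.27 to -0.37 with the SMARCA2 forms), and the EPRS1 points with BRD and ATPdead are filled where the GFP point is open.

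The falls with each cDNA were set side by side. CTH fell by -0.65 with WT, -0.58 with BRD, -0.55 with ATPdead and -0.73 with GFP. For SLC7A11 the values were -0.43, -0.33, -0.42 and -0.56, and for ASNS -0.35, -0.33, -0.32 and -0.44, in the same order. In these 3 genes the GFP value was the largest of the 4, but in SLC7A1 it was not (-0.38 with WT, -0.31 with GFP), nor in SLC7A5 (-0.27 with WT, -0.15 with GFP) or AARS1 (-0.32 with ATPdead, -0.29 with GFP). The difference between a SMARCA2 form and GFP was called in 1 gene. That gene was PHGDH with WT: the hairpin effect was 0.25 higher than with GFP (SE 0.049, adjusted p = 0.00902), where 1.82% of all genes were called higher. PHGDH read 8.20 ± 0.03 with S2sh7 and 8.46 ± 0.05 with shLuc in WT cells, and 8.07 ± 0.05 with S2sh7 and 8.59 ± 0.04 with shLuc in GFP cells (log2, SD, n = 3 each). From the 12 compared arrays alone the PHGDH difference missed the threshold (adjusted p = 0.0655). With WT the S2sh7 level was higher and the shLuc level lower than with GFP. For BRD and for ATPdead no gene of the set was called in this test (0.558% and 0.0612% of all genes), although 12 and 10 had an unadjusted p under 0.05, as did 1412 and 1643 of all 14695 genes. In all 3 tests the median difference was small, 0.02 with WT, 0.03 with BRD and 0.05 with ATPdead, against 0.01, 0.01 and 0.02 over all genes.

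Under S2sh7, 7 genes were called higher and 1 lower with WT SMARCA2 than with GFP, where 3.35% and 1.7% of all genes were. Each cDNA was carried by its own stable derivative, so its effect and other differences between derivatives cannot be told apart. SLC3A2 read log2 9.47 ± 0.06 with WT and 9.30 ± 0.01 with GFP (SD, n = 3 each), a difference of 0.18 (adjusted p = 0.00458). ALDH1L2 rose by 0.55, to a mean of log2 5.04 with WT, against 4.49 with GFP, which is near background, so the fold is uncertain. SLC7A11 rose by 0.18, GOT1 by 0.14, PHGDH by 0.13, WARS1 by 0.12 and YARS1 by 0.09. Of 15 alternatives, 9 lost the SLC7A11 call, with values from 0.004 to 0.20. The call was lost in 7 for GOT1, 7 for PHGDH, 2 for WARS1 and 13 for YARS1. The same S2sh7 arrays with GFP enter the comparisons of all 3 SMARCA2 forms with GFP and the hairpin comparison with GFP. Calls of 1 gene in several of these are therefore not independent. EPRS1, the synthetase for glutamate and proline, was lower with WT (-0.18). ATPdead called only EPRS1, lower by -0.23 (0.333% of all genes called lower). BRD called 5 genes, all lower (2.06% of all genes): EPRS1 by -0.26, PSPH by -0.18, CBS by -0.14, ASNS by -0.10 and NARS1 by -0.09. The counts rested on the pooled arrays: with any 1 array left out the WT count was 2 to 5. The BRD count was 2 without replicate 1 of BRD and 3 without replicate 2 or 3 of GFP, and the ATPdead count was 0 without any array but replicate 1 of ATPdead. From the 6 compared arrays alone none of the 3 counts was above 0.

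Set against WT under S2sh7, ATPdead was lower in SLC3A2 (-0.19, adjusted p = 0.00427), WARS1 (-0.15, adjusted p = 0.00427) and SHMT2 (-0.11, adjusted p = 0.0216), where 1.41% of all genes were called lower. BRD was lower than WT in ASNS alone (-0.15, adjusted p = 0.0223), 1 of 9 genes called in the whole table (0.0612%), and 18 of the 32 had an unadjusted p under 0.05, as did 1492 of all genes. ASNS read log2 10.91 ± 0.04 with BRD and 11.06 ± 0.02 with WT (SD, n = 3 each). The ASNS call was lost, with a count of 0, without any 1 of the 3 WT arrays or without replicate 3 of BRD.

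Under the control hairpin shLuc, 6 genes were called lower with the BRD form than with GFP, where 0.504% of all genes were called lower. ASNS read log2 11.24 ± 0.02 with BRD and 11.45 ± 0.03 with GFP (SD, n = 3 each), a difference of -0.21 (adjusted p = 0.000277). CTH (-0.25), SLC7A11 (-0.21), PHGDH (-0.17), YARS1 (-0.13) and GARS1 (-0.10) were the others. In all, 30 of the 32 genes had a negative value, against 50.6% of all genes, with a median of -0.08. With any 1 of the 6 arrays left out, 1 to 3 genes were called. WT and ATPdead called no gene of the set under shLuc (2.74% and 0.122% of all genes). At an unadjusted p under 0.05 were 6 genes with WT, 17 with ATPdead and 18 with BRD, as were 2277, 1871 and 1900 of all genes. The median of the set was -0.065 with ATPdead, near that with BRD, and 0.007 with WT. These comparisons share the shLuc arrays with GFP among themselves and with the hairpin comparison.

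In A549 the set did not move one way. Over the 4 cDNAs, 4 genes were higher and 5 lower with S2sh7 than with shLuc, where 12% and 9.06% of all genes were. The median was 0.04, against 0.01 over all genes. With 1 array per group the spread is the departure from an additive fit on 3 residual degrees of freedom. Differences of the hairpin effect between cDNAs therefore enter that spread. The count was 0 without the GFP pair or without the ATPdead pair, 2 without the WT pair and 5 without the BRD pair. By direction alone, 12 genes were higher and 8 lower in all 4 pairs, against 27.2% and 22.9% of all genes.

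**Figure D3:**
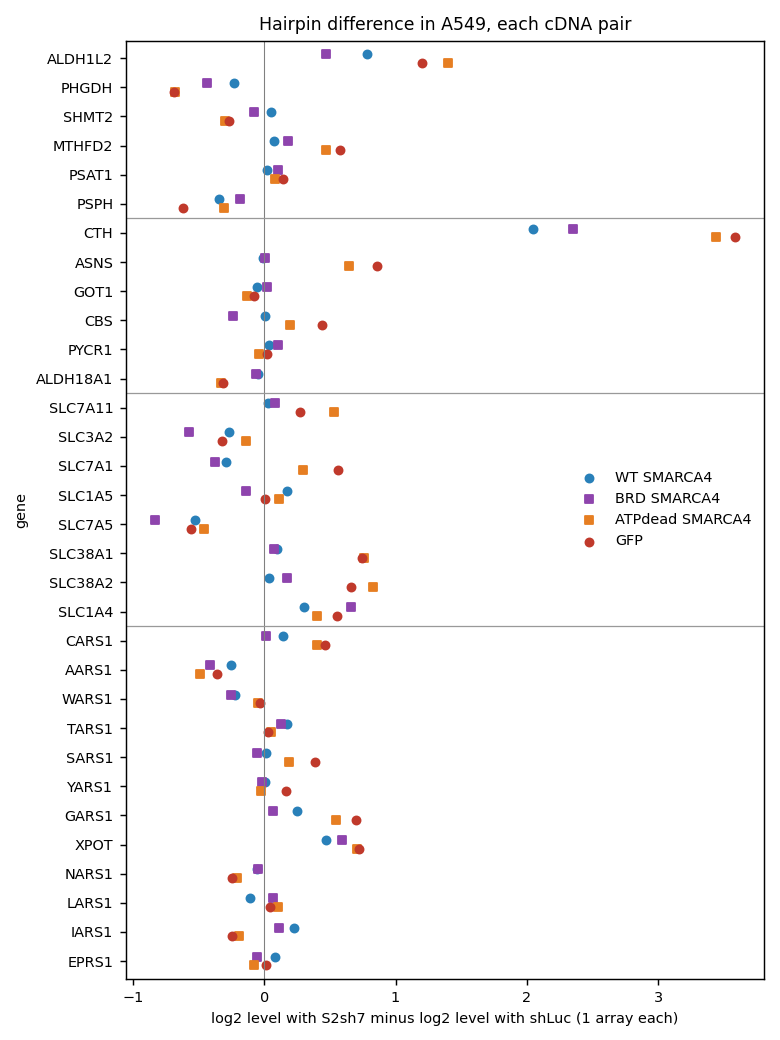
Log2 level with S2sh7 minus log2 level with shLuc in A549, 1 array each, for each cDNA. In ASNS, SLC7A1, SLC38A1, SLC38A2 and GARS1 the GFP and ATPdead points lie to the right of the WT and BRD points, and in CTH all 4 lie above 2.

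CTH had the largest change of the set. It read log2 9.12 with S2sh7 and 7.08 with shLuc in WT cells, 9.16 and 6.81 in BRD cells, 10.37 and 6.93 in ATPdead cells, and 10.65 and 7.06 in GFP cells, S2sh7 given before shLuc each time. Every S2sh7 array lay above every shLuc array, and the log2 fold change was 2.86 (SE 0.29, adjusted p = 0.0116). ALDH1L2 rose by 0.96 (adjusted p = 0.0249): it read 5.29, 4.99, 5.59 and 5.50 with S2sh7 in WT, BRD, ATPdead and GFP cells, against 4.51, 4.52, 4.19 and 4.30 with shLuc. The shLuc values lie under log2 5, near background, and the S2sh7 values close to it, so the fold is uncertain. XPOT, which exports tRNA from the nucleus, rose by 0.62 (adjusted p = 0.0118), and read 10.54, 10.66, 10.83 and 10.75 with S2sh7, against 10.06, 10.07, 10.13 and 10.03 with shLuc. SLC1A4 rose by 0.48 (adjusted p = 0.0218), and read 7.32, 7.45, 7.42 and 7.48 with S2sh7, against 7.02, 6.79, 7.01 and 6.92 with shLuc. It is the gene that rose in H1299 too, and its brightest probe set outside the suffixes _s_at and _x_at gave 0.11 in A549 (adjusted p = 0.217). The mean of the XPOT probe sets gave a smaller rise, 0.33 (adjusted p = 0.019).

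Of the genes that fell in A549, SLC7A5, the leucine carrier, changed most (-0.59, adjusted p = 0.0165). It read log2 11.06, 10.73, 11.17 and 11.10 with S2sh7 in WT, BRD, ATPdead and GFP cells, against 11.59, 11.57, 11.63 and 11.66 with shLuc. Its heavy chain SLC3A2 fell by -0.33 (adjusted p = 0.0486), and read 10.40, 10.11, 10.48 and 10.52 with S2sh7, against 10.67, 10.68, 10.62 and 10.85 with shLuc. RNA of both chains of the leucine carrier was lower in A549, in calls lost in 3 of 10 alternatives for SLC7A5 and 6 of 10 for SLC3A2. The SLC7A11 level was higher in all 4 pairs, by 0.03 to 0.53, without a call. PHGDH fell by -0.51 (adjusted p = 0.0283), and read 7.63, 7.48, 7.25 and 7.36 with S2sh7, against 7.86, 7.91, 7.93 and 8.04 with shLuc. PSPH, the last step of serine synthesis, fell by -0.36 (adjusted p = 0.0396), and read 9.32, 9.59, 9.33 and 9.20 with S2sh7, against 9.67, 9.77, 9.63 and 9.82 with shLuc. The mean of the PSPH probe sets gave -0.18 (adjusted p = 0.0555), and SLC3A2 missed the threshold without a filter or with centred arrays (adjusted p = 0.0545 and 0.0527). Of the 3 PSPH probe sets, 2 were bright enough to be tested alone. AARS1 fell by -0.38 (adjusted p = 0.0218), and read 10.03, 9.92, 9.84 and 9.90 with S2sh7, against 10.29, 10.33, 10.33 and 10.26 with shLuc. PHGDH, SLC3A2 and AARS1 were called lower in H1299 with every cDNA as well, and SLC7A5 with WT, BRD and GFP.

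The A549 cDNAs fall into forms with a working ATPase, WT and BRD, and those without, ATPdead and GFP. Over both hairpins no gene of the set and none of all 14695 was called between these classes in limma (0%), with 2 of the set and 1714 of all at an unadjusted p under 0.05. This test is additive, so a hairpin effect that differs between the classes adds to its spread. A count of 0 there does not show that the classes were alike. The hairpin effect itself differed: in 10 of the 32 genes it was called different with a working SMARCA4 ATPase than without, 9 lower and 1 higher, where 10.6% and 11.3% of all genes were. That fit has 2 residual degrees of freedom. The count was 6 without the GFP pair, 5 without the WT or the ATPdead pair and 4 without the BRD pair.

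ASNS read log2 9.18 and 9.22 with S2sh7 in WT and BRD cells and 9.94 and 10.00 in ATPdead and GFP cells, against 9.19, 9.22, 9.29 and 9.14 with shLuc in the same order. The S2sh7 minus shLuc difference averaged -0.01 with WT and BRD and 0.76 with ATPdead and GFP, and the 2 averages differed by -0.76 (SE 0.11, adjusted p = 0.00498). The mean of the 2 ASNS probe sets, of which 1 was bright enough to be tested alone, gave -0.39 (adjusted p = 0.0193). SLC7A1 differed as much (-0.76, adjusted p = 0.00728): it read 9.68, 9.58, 10.36 and 10.51 with S2sh7 in WT, BRD, ATPdead and GFP cells, against 9.97, 9.95, 10.07 and 9.94 with shLuc. Its hairpin difference was thus negative with a working ATPase and positive without. The glutamine carriers SLC38A1 and SLC38A2 had differences of -0.66 and -0.64 (adjusted p = 0.00402 and 0.00979). SLC38A1 read 10.47, 10.38, 10.98 and 11.00 with S2sh7, against 10.37, 10.30, 10.22 and 10.26 with shLuc, and SLC38A2 read 11.95, 12.05, 12.59 and 12.51 with S2sh7, against 11.92, 11.87, 11.76 and 11.85 with shLuc. In both, the ATPdead and GFP arrays under S2sh7 stood above the other 6.

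CTH had the largest difference, -1.31 (SE 0.13, adjusted p = 0.00168), as its rise averaged 2.20 with WT and BRD and 3.51 with ATPdead and GFP. ALDH1L2 differed by -0.67 (adjusted p = 0.019). MTHFD2 (-0.39, adjusted p = 0.0341) read 11.39, 11.35, 11.79 and 11.75 with S2sh7 in WT, BRD, ATPdead and GFP cells, against 11.31, 11.17, 11.32 and 11.17 with shLuc. GARS1 (-0.46, adjusted p = 0.0317) read 11.05, 10.92, 11.43 and 11.53 with S2sh7, against 10.80, 10.86, 10.89 and 10.82 with shLuc. CARS1 (-0.35, adjusted p = 0.0459) read 10.14, 9.98, 10.44 and 10.39 with S2sh7, against 10.00, 9.96, 10.04 and 9.93 with shLuc. All 3 were higher under S2sh7 in the ATPdead and GFP cells than in any other cells of A549. IARS1, the isoleucyl-tRNA synthetase, went the opposite way (0.39, adjusted p = 0.0308), and read 11.67, 11.58, 11.33 and 11.24 with S2sh7, against 11.44, 11.46, 11.53 and 11.48 with shLuc. The call was lost in 6 of 11 alternatives for CARS1, 5 of 11 for MTHFD2 and 5 of 10 for GARS1 and for IARS1. For ALDH1L2 it was lost in 2 of 9, for SLC7A1 in 1 of 11 and for SLC38A2 in 1 of 10. For ASNS, CTH and SLC38A1 it was lost in 0. Of the 32 genes, 24 had both working-ATPase arrays on the same side of both other arrays under S2sh7, as had 67.9% of all genes. The median working minus other difference was -0.12 under S2sh7 and -0.01 under shLuc.

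**Figure D4:**
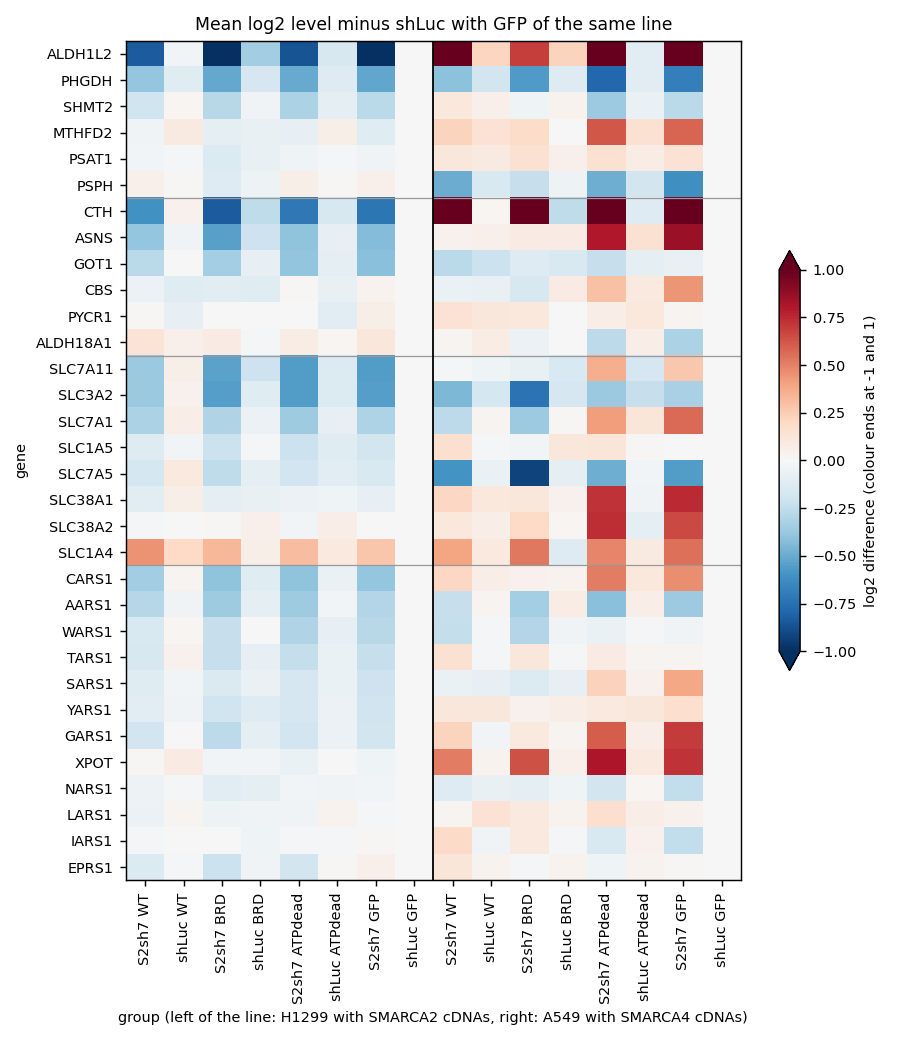
Mean log2 level of each tested gene in all 16 groups, minus shLuc with GFP of the same line (colour, ends at -1 and 1; 3 arrays per group in H1299, 1 in A549). In H1299 the S2sh7 columns are blue for CTH, ASNS, GOT1, SLC7A11 and SLC3A2 with every cDNA, and in A549 CTH is red in every S2sh7 column and ASNS is deep red in the ATPdead and GFP columns under S2sh7.

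Between the lines the mean effect of the hairpin had opposite signs in 12 of the 32 genes, in every pair of A549 and with every cDNA of H1299, against 12.3% of all genes. In 6 of them (3.32% of all genes) the H1299 arrays of the hairpins did not overlap with any cDNA either. Of these 6, CTH and ALDH1L2 alone were called for the hairpin in A549. The smallest of the 4 pair differences there was 0.03 in SLC7A11, 0.01 in CARS1, 0.07 in GARS1 and 0.03 in TARS1. In these 6 the mean effect was 2.86 in A549 and -0.63 in H1299 for CTH, 0.96 and -0.95 for ALDH1L2, 0.23 and -0.43 for SLC7A11, 0.26 and -0.34 for CARS1, 0.39 and -0.17 for GARS1, and 0.10 and -0.19 for TARS1, A549 given before H1299. ALDH1L2 passed log2 5 on only 18 of the 32 arrays, so its values in either line are uncertain. The difference between lines was not tested, since the lines were normalized separately, carry different batch labels and expressed different cDNAs, which cannot be told apart from the line.

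Genes around the set were read from 7 lists for H1299 with GFP, where 16.1% of all genes were called lower and 13.6% higher. Of 25 regulators of the integrated stress response and other ATF4 targets, 18 were lower and 1 higher with S2sh7, at a median of -0.26. ATF3, TRIB3, DDIT3 and CHAC1, stress-induced genes of which ATF3 and DDIT3 encode transcription factors, had the smallest adjusted p (log2 fold changes -2.35, -0.90, -0.90 and -1.12). ATF4 RNA itself was not called (-0.06, SE 0.025, adjusted p = 0.0718). In A549, ATF4 gave 0.04 over the 4 cDNAs (adjusted p = 0.755), TRIB3 fell by -0.47 (adjusted p = 0.0142), and ATF3, DDIT3 and CHAC1 gave -0.57, 0.27 and 0.38 without a call. With a working SMARCA4 ATPase the A549 hairpin effect on DDIT3 was lower by -0.55 (adjusted p = 0.00797) and that on ATF3 higher by 0.62 (adjusted p = 0.043), while TRIB3 and CHAC1 were not called (-0.05 and -0.70).

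**Figure D5:**
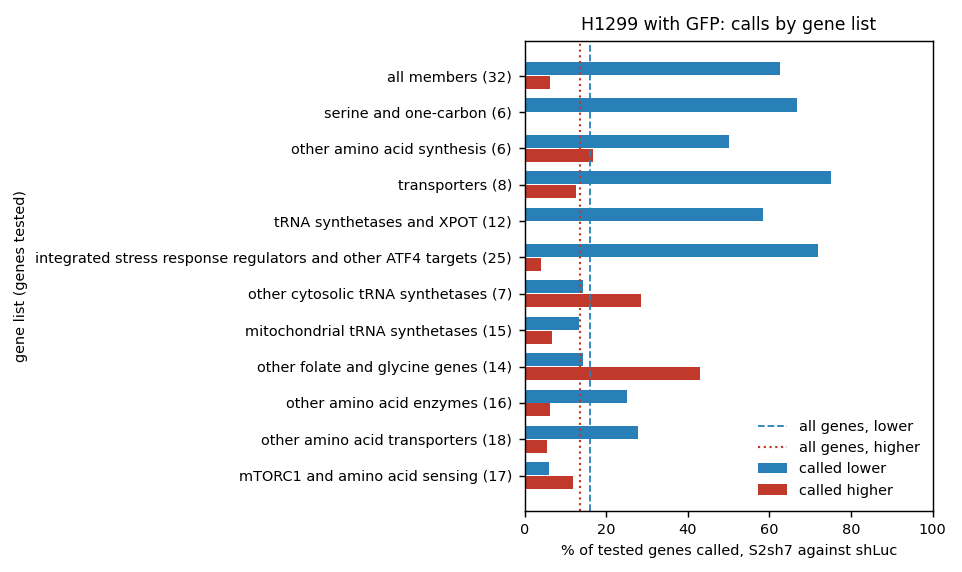
Share of tested genes called lower (blue) and higher (red) with S2sh7 against shLuc in H1299 with GFP, for the set, its 4 roles and 7 related lists, with the number tested. Dashed and dotted lines are the shares of all genes, 16.1% lower and 13.6% higher. The roles of the set and the stress response list reach 50% or more called lower; the other 6 lists stay under 30% called lower.

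Amino acid genes outside the set did not share its counts. The counts here stand against 16.1% of all genes called lower and 13.6% called higher with GFP in H1299. Of 7 other genes for cytosolic tRNA synthetases and proteins of their complex, 1 was lower, AIMP1 (-0.13), and 2 were higher, RARS1 (0.10) and FARSB (0.12). AIMP1 encodes a protein of the complex that is not itself a synthetase. Of 15 mitochondrial synthetases 2 were lower, MARS2 (-0.24) and FARS2 (-0.17), and 1 was higher, IARS2 (0.19). Among 14 further folate and glycine genes 6 were higher and 2 lower, with GLDC of the glycine cleavage system at 0.37, AHCY at 0.24, FTCD at 0.36 and TYMS, thymidylate synthase, at 0.16. Of 16 other amino acid enzymes 4 were lower and 1 higher, with AASS at -0.38, ODC1 at -0.11, BCAT1 at -0.13 and GLUD1 at 0.10. Of 18 other amino acid transporters 5 were lower and 1 higher, among them the taurine carrier SLC6A6 (-0.39), SLC36A1 (-0.25), SLC7A6 (-0.15) and the mitochondrial glutamate carrier SLC25A22 (0.23). Of 17 genes of mTORC1 and amino acid sensing 1 was lower, RRAGD (-0.28), and 2 were higher, EIF4EBP2 (0.10) and RRAGB (0.21).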

How the data were processed

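Deposited values were RMA expression per probe set as intensity on a linear scale, for which the submitters' processing notes name RMA and limma without versions. The design had assumed log2 values, so log2 of the deposited intensity was taken, with no pseudocount. Array medians were 26.4 to 27.3 in H1299 (Batch1) and 40.1 to 41.2 in A549 (Batch2), so each line was fitted alone. Each gene was read by the probe set with 1 symbol and the highest mean log2 value (41097 of 54675 probe sets; 1801 had several symbols, 11777 none), and tested with log2 over 5 in at least 3 of 32 arrays.

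Fits used limma 3.58.1 under R 4.3.3: H1299 with 1 mean per group (16 residual degrees of freedom), and A549 with additive cDNA and hairpin terms, or a hairpin effect for each ATPase class. Adjusted p is Benjamini-Hochberg over 14695 genes, called under 0.05. The number of arrays limits precision. Replicate numbers did not pair samples. Members and lists were chosen with earlier results of these data known. Arrays are named in full for up to 3 genes per role with the largest non-overlapping calls with GFP, for those called in an interaction or in A549, and for those called against their role; list genes are the 4 called with the smallest adjusted p. Promoters came from RefSeq (GRCh38.p14), and PSPH, SHMT2, ALDH1L2, PYCR1, GPT2, SLC7A11, LARS1 and YARS1 had none there. Figures used Python 3.11.15 and matplotlib 3.10.9.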

Additional observations from a re-analysis of the deposited data

Results flagged for a closer look

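A difference in the hairpin effect between cDNAs of the same line brought up 11 results. In H1299, the S2sh7 effect on PHGDH was 0.25 higher with WT SMARCA2 than with GFP (limma adjusted p = 0.00902). In A549, the S2sh7 effect with a working SMARCA4 ATPase minus that without was -1.31 for CTH (adjusted p = 0.00168), -0.76 for ASNS (0.00498), -0.76 for SLC7A1 (0.00728), -0.67 for ALDH1L2 (0.019), -0.66 for SLC38A1 (0.00402), -0.64 for SLC38A2 (0.00979), -0.46 for GARS1 (0.0317), -0.39 for MTHFD2 (0.0341), -0.35 for CARS1 (0.0459) and 0.39 for IARS1 (0.0308). The calls of CARS1, GARS1, IARS1 and MTHFD2 were each lost in 5 or 6 alternatives.

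In 6 genes every S2sh7 array of H1299 lay below every shLuc array with each cDNA while S2sh7 was higher in every pair of A549, and that difference was not tested. CTH, ALDH1L2, CARS1 and GARS1 are among the genes above as well. Of the 6, only CTH and ALDH1L2 were called for the hairpin in A549 over the 4 cDNAs. A549 minus H1299 was 3.48 for CTH, 1.91 for ALDH1L2, 0.67 for SLC7A11, 0.60 for CARS1, 0.56 for GARS1 and 0.28 for TARS1 (log2, means over the 4 cDNAs). Groups of 3 arrays or 1 were too small for a test of stray arrays.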

How the results depend on the processing

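The hairpin counts in H1299 (20 genes called with WT, 19 with BRD, 20 with ATPdead, 22 with GFP) were within 1.5 times of these under every alternative except the choice of probe sets without the suffixes _s_at and _x_at, which gave 13 with WT, 12 with BRD and 12 with ATPdead of 22 testable genes. Without each array in turn they were 17 to 21, 18 to 20, 18 to 20 and 20 to 22. The smaller counts moved more. Without each array in turn, cDNA against GFP under S2sh7 gave 2 to 5 for WT, 2 to 4 for BRD and 0 to 1 for ATPdead (8, 5 and 1 with all arrays), ATPdead against WT 2 to 3, BRD against WT 0 to 1, BRD against GFP under shLuc 1 to 3 (6 with all), WT 0 to 1 and ATPdead 0 to 0. The difference of the hairpin effect gave 1 to 2 genes for WT and 0 to 0 for BRD and for ATPdead. Without each A549 pair in turn, the hairpin gave 0 to 5 (9 with all), the ATPase classes 0 to 0 and the difference of the hairpin effect 4 to 6 (10 with all).

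The mean of all probe sets gave 3 for BRD and 2 for ATPdead against GFP under S2sh7 and 0 for BRD against WT. Probe sets without the suffixes _s_at and _x_at gave 5, 2 and 0 for WT, BRD and ATPdead against GFP under S2sh7, 1 for ATPdead and 0 for BRD against WT, 2 for BRD under shLuc, and 5 for the A549 difference. No filter gave 4 for WT and 3 for BRD against GFP under S2sh7 and 0 for BRD against WT. A filter of log2 over 6 gave 2 for the WT difference of the hairpin effect, 3 for BRD against WT and 2 for WT under shLuc. Repeated quantile normalization gave 5 for ATPdead against WT. Centring each array gave 4, 3 and 0 for WT, BRD and ATPdead against GFP under S2sh7, 0 for BRD against WT and 3 for BRD under shLuc. With trend and robust eBayes the differences of the hairpin effect called 2 genes with WT, 2 with BRD and 1 with ATPdead, BRD and ATPdead against GFP under S2sh7 called 8 and 2, ATPdead and BRD against WT 6 and 4, the shLuc comparisons 2 for WT, 10 for BRD and 2 for ATPdead, and the A549 difference 16. From the compared arrays alone, the WT difference, all 5 cDNA comparisons under S2sh7 and BRD under shLuc gave 0.

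The replicate block gave 20, 18, 19 and 22 for the hairpin with WT, BRD, ATPdead and GFP. Deviations of same-numbered arrays correlated at -0.186 to 0.099 over 12 pairs, so the numbers do not pair them, and the block moved no count by over 1.5 times. Of 1757 values of single genes under the alternatives, 1481 kept direction and call, 272 lost the call and 4 reversed: SLC1A4 without probe sets of those suffixes, at -0.11 with WT and -0.063 with ATPdead, and, in the mean of all probe sets, MTHFD2 with ATPdead at 0.026 and ASNS for BRD against GFP under S2sh7 at 0.022. Only 1 of the 2 ASNS probe sets was bright enough to be tested alone. The causes were not tested.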
